A study of Mus musculus with 15 samples.

Results

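The genes described here are the neighbours of Casp2 on mouse chromosome 6. Casp2, which encodes the protease caspase-2, lies at 42264902 to 42282508 of GRCm38, and 43 named genes within about 7 Mb on either side were followed, without Casp2 itself and without the Gimap gene cluster. They span 38287394 to 48845948, with 22 on the centromeric (proximal) side and 21 on the distal side, and make up 43 of the 23329 genes counted. After a filter for more than 1 CPM (counts scaled to library size) in at least 3 tumors, 40 of the 43 were tested among 14880 genes. Wee2, Kel and Tmem139 were not, with at most 5, 2 and 3 reads in any tumor. Trpv6 passed the filter only through 3 tumors, all lacking Casp2, so its inclusion favors higher values without Casp2.

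When a mouse gene is knocked out in embryonic stem cells and the allele is then bred onto another strain, DNA next to the targeted gene travels with it, because recombination close by is rare. Such passenger DNA can carry variants of the neighbouring genes from the donor strain, and the targeting itself can alter transcription nearby. The question put to the data was whether neighbours of Casp2 moved alike in both tumor types when Casp2 was missing. A passenger variant can also act in a single cell type, and wild-type mice of a mixed background can carry the same flanking alleles. Strain of origin and DNA sequence were not measured in these files.

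RNA was sequenced from 15 tumors, each from a different mouse. EμMyc mice carry c-Myc driven by an immunoglobulin heavy chain enhancer, which acts in B cells, and their lymphomas were taken from cervical lymph nodes on a C57BL/6 background. Th-MYCN mice carry MYCN driven by the tyrosine hydroxylase promoter, which acts in sympathetic neuroblasts, and their neuroblastomas came from paraspinal thoracic tumors, picked for low vascularization, on a Sv129/C57BL6 background. There were 4 EμMyc tumors (onset at 13 to 19 weeks), 3 EμMyc/Casp2-/- (8 to 12 weeks), 4 Th-MYCN (10 to 21 weeks) and 4 Th-MYCN/Casp2-/- (15 to 24 weeks), and a further EμMyc/Casp2-/- tumor that the study removed was not analysed here. Every tumor carried a Myc family transgene, so no normal tissue was available as a baseline. The strain differed with the tumor type, and the single female lymphoma was EuMycC2ko215, an EμMyc/Casp2-/- tumor. Onset was earlier in every EμMyc/Casp2-/- tumor than in any EμMyc tumor, so genotype and onset age cannot be told apart in the lymphomas.

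The libraries held 4940464 to 17638029 reads on genes, the shallowest being EuMycC2ko215, and 3 reads corresponded to 0.173 to 0.586 CPM. The 7 B cell markers summed to 2162 to 4875 CPM in the lymphomas and to 3.31 to 12.9 CPM in the neuroblastomas, and the 7 neuroblast markers to 2276 to 4634 CPM in the neuroblastomas and 1.81 to 15.3 CPM in the lymphomas. T cell markers stood apart by genotype in the lymphomas, with 4 of 7 higher at an FDR under 0.05 in edgeR's likelihood ratio test and sums of 1286, 209 and 151 CPM in the EμMyc/Casp2-/- tumors against 29.5 to 106 CPM in EμMyc. In bulk tumors, fewer cells of a type and less RNA per cell cannot be told apart.

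Casp2 itself was checked first. Its normalized level was 167, 125, 203 and 139 CPM in the EμMyc tumors and 58.0, 51.9 and 76.1 CPM in the EμMyc/Casp2-/- tumors, without overlap. In Th-MYCN tumors it was 125, 93.3, 76.0 and 106 CPM, and in Th-MYCN/Casp2-/- tumors 80.2, 57.7, 39.6 and 54.5 CPM, where the highest null tumor exceeded the lowest wild-type tumor. The fitted log2 fold change was -1.35 in the lymphomas (FDR 0.0004) and -0.79 in the neuroblastomas (FDR 0.101) by the likelihood ratio test (LRT) of edgeR, with FDRs of 0.0536 and 0.327 by its stricter quasi-likelihood test (QLF). Reads on Casp2 thus remained in every null tumor, and the counts, given per gene, do not show on which exons. The paper reports that genotyping and immunoblotting established the Casp2 deletion in its tumor samples.

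Among the members set apart by genotype in the lymphomas were 3 adjacent genes about 6 Mb distal of Casp2. Krba1 (48394643 to 48419855), which encodes a protein with a KRAB-A domain, Zfp467 (48427692 to 48445992), which encodes a zinc finger transcription factor, and Sspo (48446230 to 48501262), which encodes the secreted glycoprotein SCO-spondin, were the 3 members whose lymphoma groups did not overlap, each being higher without Casp2. That is 3 of 40 (7.5%), against 3.7% of all genes, or 1.75% for those higher. Of the 3 only Krba1 passed the LRT in the lymphomas. They were picked out after their values were seen. Of the 15 other tested genes in the window, Zfp783, named after its values were seen, also had lymphoma groups without overlap and was not called (log2 fold change 1.60, LRT FDR 0.431). Their promoters, as RefSeq gives them for GRCm38.p6 from 250 bases before to 50 bases after the start, are shown because the genes lie side by side and each had lymphoma groups set apart in the same direction. The starts used for these windows lie inside the gene spans given above. Capitals mark GGGCGG or its complement CCGCCC, the GC box bound by Sp1 family factors.
Krba1, chr6:48395336-48395635, plus strand: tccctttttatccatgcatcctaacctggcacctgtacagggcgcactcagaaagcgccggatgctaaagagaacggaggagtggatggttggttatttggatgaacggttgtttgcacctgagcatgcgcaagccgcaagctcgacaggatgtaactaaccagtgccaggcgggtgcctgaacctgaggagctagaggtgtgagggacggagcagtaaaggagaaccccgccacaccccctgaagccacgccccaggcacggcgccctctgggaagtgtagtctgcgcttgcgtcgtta
Zfp467, chr6:48445041-48445340, minus strand: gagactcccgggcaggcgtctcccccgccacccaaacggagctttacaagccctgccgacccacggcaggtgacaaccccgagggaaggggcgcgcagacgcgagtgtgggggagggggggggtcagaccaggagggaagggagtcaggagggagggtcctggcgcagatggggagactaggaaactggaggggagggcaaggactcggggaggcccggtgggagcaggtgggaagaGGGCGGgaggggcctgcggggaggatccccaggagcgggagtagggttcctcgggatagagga
Sspo, chr6:48447924-48448223, plus strand: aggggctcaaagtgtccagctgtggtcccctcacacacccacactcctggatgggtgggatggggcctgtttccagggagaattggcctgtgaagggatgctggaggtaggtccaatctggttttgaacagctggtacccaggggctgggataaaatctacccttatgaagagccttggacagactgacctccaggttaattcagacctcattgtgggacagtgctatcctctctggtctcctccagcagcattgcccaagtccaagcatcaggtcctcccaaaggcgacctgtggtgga

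The GC box was found once in the Zfp467 promoter and not in the windows of Krba1 or Sspo. Across the 49 promoters listed for 40 of the 43 members, 24 (49.0%) held it on either strand, against 35.7% of all 32851 promoters. The E-box CACGTG, the palindrome preferred by Myc and MYCN with their partner Max, was in 2 member promoters (4.08%), 1 of Slc37a3 and 1 of Cul1, against 7.15% of all promoters, and in none of the 3 printed windows. Promoters of Lrrc61, Rarres2 and Repin1 were not analysed here. A match to these letters is a description of the window and not evidence of binding.

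Krba1 was the member that changed most clearly in the lymphomas. Its level was 5.42, 1.71, 3.39 and 6.16 CPM in the EμMyc tumors and 24.2, 15.2 and 23.4 CPM in the EμMyc/Casp2-/- tumors, a mean of 4.17 ± 2.02 (SD, n = 4) against 20.9 ± 5.0 (SD, n = 3). Every null tumor was thus above every wild-type tumor. The log2 fold change was 2.33 (standard error 0.37, LRT FDR 4.53e-07, QLF FDR 0.0183), and it ranged from 2.07 to 2.57 when each lymphoma in turn was left out. In the neuroblastomas, Krba1 was far more abundant and showed no such shift, with 113, 66.1, 64.5 and 61.6 CPM in Th-MYCN and 81.9, 90.5, 59.8 and 92.4 CPM in Th-MYCN/Casp2-/- tumors. The log2 fold change there was 0.09 (95% interval -0.54 to 0.72, LRT FDR 1). The effect of genotype differed between the tumor types by 2.24 on the log2 scale (LRT FDR 0.00298, QLF FDR 0.190), so the difference passed 1 test of the 2. T cell sums were also higher in every EμMyc/Casp2-/- tumor than in any EμMyc tumor, and their part in the Krba1 values was not tested. Without EuMycC2ko215, the log2 fold change of Krba1 was 2.23 (LRT FDR 3.93e-05). The null tumors kept in that fit had T cell sums of 209 and 151 CPM, still above the 29.5 to 106 CPM of EμMyc.

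Sspo was at low levels in the lymphomas, with 1, 5, 6 and 8 reads in the EμMyc and 13, 21 and 11 reads in the EμMyc/Casp2-/- tumors, or 0.0875, 0.428, 0.472 and 0.849 CPM against 2.54, 1.75 and 1.11 CPM. The groups did not overlap, yet the fitted difference of 1.94 in log2 units (standard error 0.61) missed the threshold, with an LRT FDR of 0.0667 and a QLF FDR of 0.262. In the neuroblastomas the order was the opposite, 17.2, 8.93, 8.31 and 7.23 CPM in Th-MYCN and 4.83, 3.47, 4.24 and 6.74 CPM in Th-MYCN/Casp2-/- tumors. Here too the groups did not overlap, and the change fitted was -1.11 in log2 units (standard error 0.45, LRT FDR 0.362). The difference between the 2 genotype effects, 3.05 on the log2 scale, passed the LRT (FDR 0.0138), missed the QLF test (FDR 0.318) and no longer passed the LRT without EuMycC2ko215.

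Zfp467 lay between them on the chromosome and showed a smaller version of the same pair of values. It was at 1.40, 1.97, 2.05 and 3.61 CPM in EμMyc and 9.18, 3.76 and 3.63 CPM in EμMyc/Casp2-/- tumors, where the lowest null tumor stood just above the highest wild-type tumor. In Th-MYCN it was at 31.5, 15.6, 21.8 and 17.8 CPM and in Th-MYCN/Casp2-/- at 10.9, 8.93, 14.7 and 17.4 CPM. The log2 fold changes of 1.26 (LRT FDR 0.183) and -0.74 (LRT FDR 0.712) did not pass. In the exons of GENCODE M21, none of these 3 genes shared bases with another gene.

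**Figure D1:**
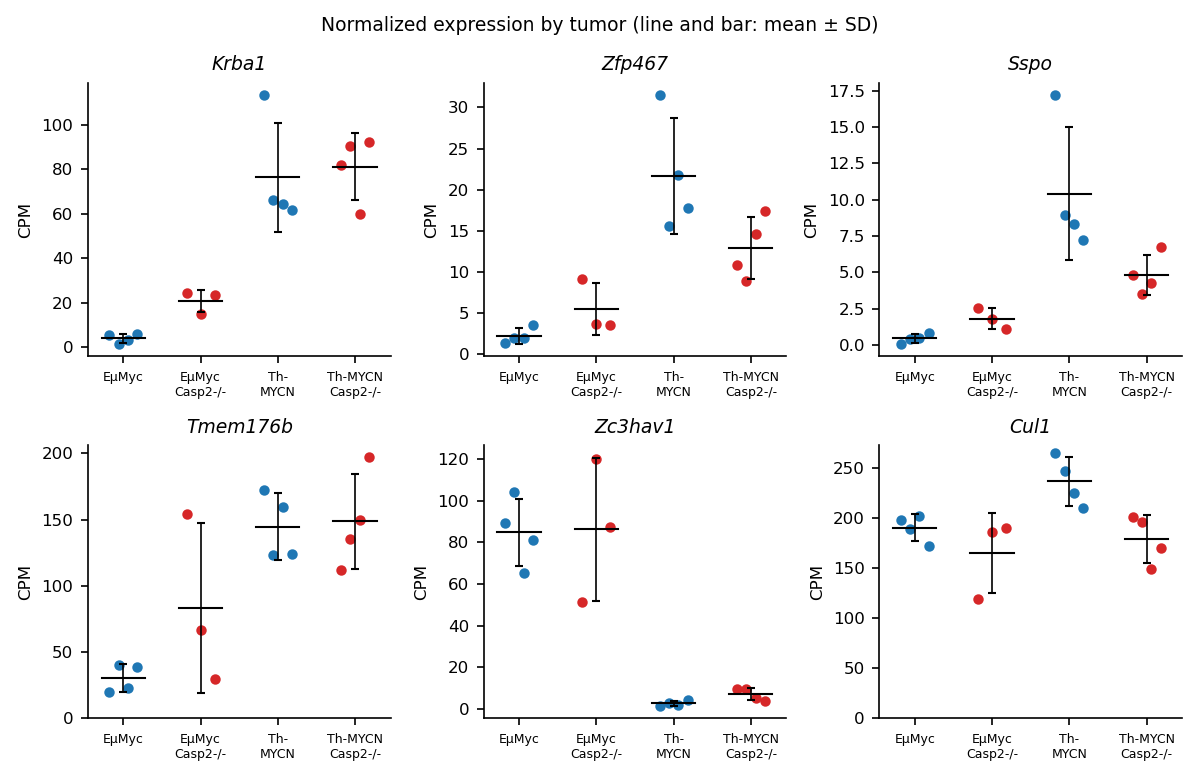
Normalized expression (CPM, linear axis) of 6 members in each of the 15 tumors, with the 4 groups on the horizontal axis, blue for Casp2 wild type and red for Casp2-/-, and lines and bars for the mean ± SD. Krba1 lies between 1.71 and 6.16 CPM in EμMyc and between 15.2 and 24.2 CPM in EμMyc/Casp2-/- tumors, whereas its neuroblastoma groups overlap.

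In the lymphomas as a whole, 2 of 40 members (5%) were differentially expressed (LRT FDR under 0.05 and over 2-fold), Krba1 and Tmem176b, both higher, beside 1.44% of all genes in either direction and 1.14% higher. QLF called Krba1 alone, and 0.141% of all genes. At an unadjusted p under 0.05 there were 10 of 40 (25%) by the LRT, against 9.89% of all genes, and 11 by QLF, against 8.53%. Of the 597 tested genes of chromosome 6 outside the window, 12.7% and 11.6% reached it. Both member counts include Trpv6. These shares describe the members and were not tested against other genes, since neighbours do not vary independently.

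Tmem176b (48833811 to 48845948) encodes a membrane protein of the MS4A-related family that is abundant in dendritic cells and macrophages. It was at 19.9, 40.4, 22.8 and 38.9 CPM in EμMyc tumors and at 154, 66.7 and 29.5 CPM in EμMyc/Casp2-/- tumors, so that the lowest null tumor lay within the wild-type range. The log2 fold change was 1.45 (standard error 0.42, LRT FDR 0.0390, QLF FDR 0.232), and it was 0.67 (LRT FDR 0.942) without EuMycC2ko215. The call was also lost without EuMyc614 (1.31, LRT FDR 0.132) or EuMyc829 (1.32, LRT FDR 0.143). Its partner Tmem176a, transcribed from the opposite strand with 81 bases of shared exon, had 9.89 to 23.7 CPM in EμMyc and 52.2, 34.0 and 16.3 CPM in EμMyc/Casp2-/- tumors (log2 fold change 1.04, LRT FDR 0.279). The 7 macrophage markers measured summed to 1709, 984 and 316 CPM in the EμMyc/Casp2-/- tumors EuMycC2ko215, EuMycC2ko239 and EuMycC2ko245, the same order as both genes, and to 554 to 1114 CPM in EμMyc, with none of the 7 called. The T cell sums had that order too. Their part in the result was not tested.

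The other members with an unadjusted LRT p under 0.05 in the lymphomas missed the adjusted threshold. Ttc26, an intraflagellar transport subunit, had 1.88 to 13.2 CPM in EμMyc and 0.977 to 2.25 CPM in EμMyc/Casp2-/- tumors (log2 fold change -1.67, LRT FDR 0.212), the wild-type mean resting on EuMyc835. Rab19, a small GTPase (1.18), Mkrn1, an E3 ubiquitin ligase (0.66), and the zinc finger gene Zfp775 (1.05) were each highest in EuMycC2ko215, with LRT FDRs of 0.348, 0.288 and 0.225. Trpv6, an epithelial calcium channel, had 7 reads in EuMycC2ko215, 1 read in EuMyc829 and none in the other 5 lymphomas, so no fold change is given.

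In the neuroblastomas, 1 of 40 members (2.5%) was differentially expressed by the LRT, against 0.813% of all genes, and none by QLF, which called 0.0336% of all genes. At an unadjusted p under 0.05 there were 4 of 40 by each test, against 7.78% of all genes by the LRT and 6.77% by QLF. Zc3hav1 (38305286 to 38355352) encodes the zinc finger antiviral protein, which binds viral RNA. It was at 1.53, 3.05, 1.90 and 4.38 CPM in Th-MYCN and at 9.51, 9.77, 5.30 and 3.82 CPM in Th-MYCN/Casp2-/- tumors, a mean of 2.72 ± 1.29 (SD, n = 4) against 7.10 ± 2.99 (SD, n = 4), and the lowest null tumor lay below the highest wild-type tumor. This was 1.39 in log2 units (standard error 0.39), with an LRT FDR of 0.0477 and a QLF FDR of 0.278. Its call was kept without MYCN391 or MYCNC2ko180 and lost when any 1 of the other 6 neuroblastomas was left out (log2 fold change 1.21 to 1.72 over all 8), and it was lost under 6 of the 9 other settings tried, QLF among them. In the lymphomas, which hold far more of this transcript, its log2 fold change was 0.02 (95% interval -0.75 to 0.80), with 65.4 to 104 CPM in EμMyc and 51.2 to 120 CPM in EμMyc/Casp2-/- tumors.

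The members with neuroblastoma groups that did not overlap were Sspo, given above, and Cul1, which makes 2 of 40 (5%) against 6.62% of all genes. Both were lower in the null tumors, as were 3.68% of all genes. Cul1, the scaffold of SCF ubiquitin ligases, was at 265, 247, 225 and 209 CPM in Th-MYCN and 201, 196, 149 and 170 CPM in Th-MYCN/Casp2-/- tumors, or -0.40 in log2 units (standard error 0.18, LRT FDR 0.508). Dennd2a, an activator of Rab GTPases, had 78.2 to 131 CPM in Th-MYCN and 65.5 to 78.5 CPM in Th-MYCN/Casp2-/- tumors, overlapping by the margin of 1 tumor (log2 fold change -0.60, LRT FDR 0.542). Neither passed the test. The 5 endothelial markers summed to 46.3 to 72.3 CPM in Th-MYCN and to 18.8 to 30.9 CPM in Th-MYCN/Casp2-/- tumors, without overlap, and 2 of the 5 were lower at an LRT FDR under 0.05. The part of these cells in the neuroblastoma values of Zc3hav1, Sspo, Cul1 and Dennd2a was not tested.

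The nearest neighbours of Casp2 did not pass in either tumor type. Of the 5 members within 100 kb, Tmem139 was not tested. Gstk1, a mitochondrial glutathione transferase, was at 5.34, 1.11, 1.02 and 2.12 CPM in EμMyc, 2.15, 1.75 and 2.02 CPM in EμMyc/Casp2-/-, 2.02, 1.16, 1.15 and 1.98 CPM in Th-MYCN, and 1.30, 1.80, 1.83 and 1.95 CPM in Th-MYCN/Casp2-/- tumors. It had log2 fold changes of 0.12 (95% interval -0.91 to 1.15) in the neuroblastomas and -0.29 (-1.42 to 0.85) in the lymphomas. Groups of Gstk1 overlapped in both.

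Clcn1, the skeletal muscle chloride channel, was at 14.3, 6.46, 6.58 and 4.76 CPM in Th-MYCN and 21.0, 14.9, 5.98 and 15.8 CPM in Th-MYCN/Casp2-/- tumors, and its log2 fold changes were 0.85 (95% interval -0.18 to 1.88) in the neuroblastomas and 0.43 (-1.27 to 2.14) in the lymphomas. Fam131b was at 95.5, 46.8, 55.7 and 44.5 CPM against 69.1, 70.1, 99.5 and 79.4 CPM in the neuroblastomas, with 0.39 (-0.23 to 1.02) there and -0.99 (-3.37 to 1.39) in the lymphomas. Both genes had overlapping groups. Zyx, which encodes the focal adhesion protein zyxin, was at 280, 82.8, 114 and 91.5 CPM in Th-MYCN and 134, 79.9, 181 and 119 CPM in Th-MYCN/Casp2-/- tumors, the first of these, MYCN175, being the highest of all. In the lymphomas it was at 11.6, 26.4, 11.3 and 14.7 CPM in EμMyc and 26.0, 23.9 and 9.39 CPM in EμMyc/Casp2-/- tumors. Its log2 fold changes were -0.15 (-0.98 to 0.69) and 0.30 (-0.61 to 1.21). All of these intervals but that of Zyx in the neuroblastomas reach a 2-fold change in at least 1 direction, and in the lymphomas Clcn1 and Fam131b were at or below 0.781 CPM in every tumor.

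By distance from Casp2, the median log2 fold change did not fall steadily in either tumor type. The bin under 1 Mb holds Trpv6, over 1 CPM only in the Casp2-/- tumors EuMycC2ko215, MYCNC2ko144 and MYCNC2ko180. The filter itself thus favors higher medians in that bin. In the neuroblastomas the median log2 fold change was 0.26 for the 6 members under 1 Mb away, -0.16 for the 10 at 1 to 3 Mb, -0.16 for the 8 at 3 to 5 Mb and 0.02 for the 16 beyond 5 Mb. In the lymphomas the same bins had 0.37, 0.20, -0.12 and 0.32. Of the 6 members under 1 Mb, Trpv6, Clcn1 and Fam131b averaged 0.02, 0.24 and 0.15 CPM in EμMyc tumors. In the neuroblastomas Trpv6 had 3 to 20 reads, and the intervals of Gstk1, Clcn1, Fam131b and Zyx include 0. There Zyx (-0.15) and Arhgef5 (-0.21) were lower in the null tumors. A gradient near Casp2 was therefore not resolved in either tumor type. Of the 16 members beyond 5 Mb, all on the distal side, 12 were higher in the lymphomas lacking Casp2 and 10 in the neuroblastomas lacking it. Of tested chromosome 6 genes outside the window, 61.5% and 32.5% were higher. The 19 tested members proximal of Casp2 had medians of -0.13 in the neuroblastomas and 0.01 in the lymphomas, and the 21 distal members 0.02 and 0.43. None of the 15 other tested genes in the window reached an LRT FDR under 0.05 in either comparison, where 0.894% and 1.5% of all genes did.

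**Figure D2:**
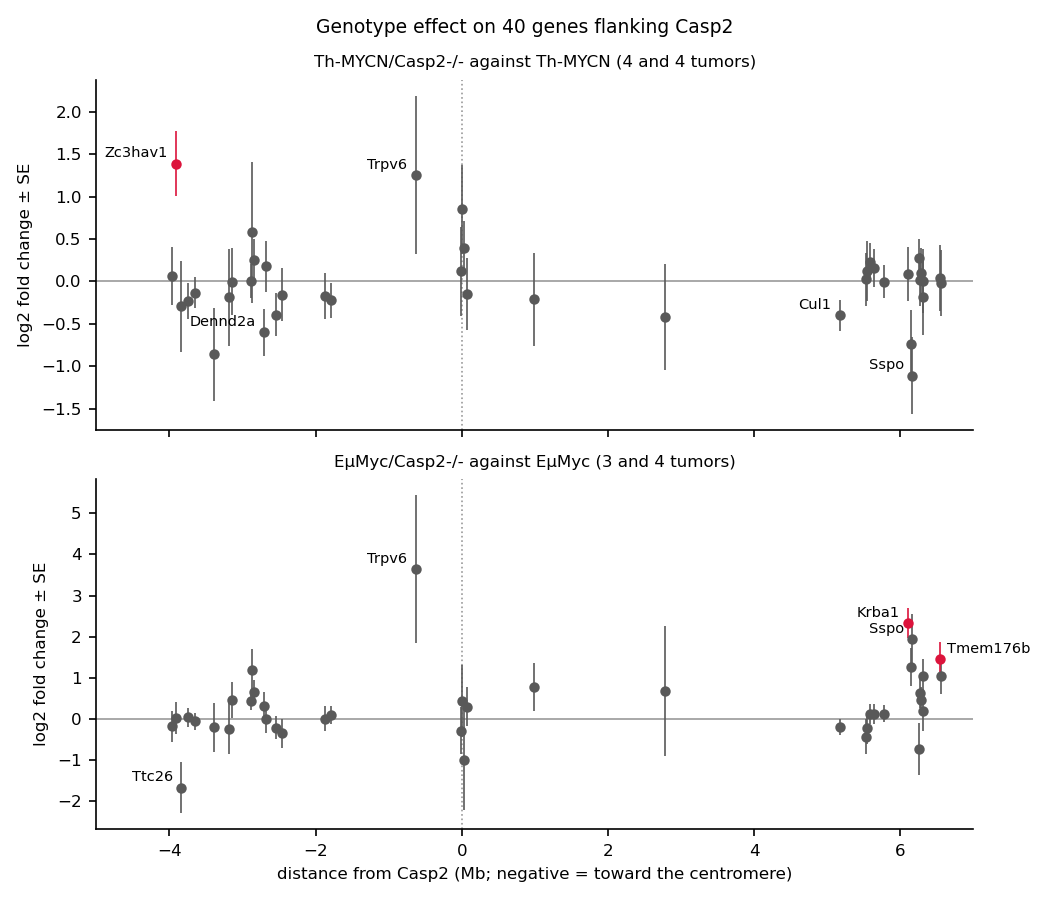
Fitted log2 fold change (± standard error) of each of the 40 tested members against its distance from Casp2 in Mb, for the neuroblastomas (top) and the lymphomas (bottom), with members at an LRT FDR under 0.05 in red. Zc3hav1 alone is red in the neuroblastomas, and Krba1 and Tmem176b, both over 6 Mb away, in the lymphomas.

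Set side by side, the comparisons of the tumor types, which share no tumor, had no called member in common. Of 40 members 20 (50%) had the same sign in both, against 52.7% of all genes, 13 being higher in both (24.5% of all genes) and 7 lower in both (28.2%). None had groups without overlap in the same direction in both, where 0.101% of all genes did, and none reached an LRT FDR under 0.05 in both, where 0.0134% did. The only member with an unadjusted LRT p under 0.05 in both was Sspo, in opposite directions. Across the 40 members the log2 fold changes had a Pearson r of 0.16 and a Spearman coefficient of 0.02. Across all genes these were 0.02 and 0.05. Genes are not independent replicates and the fits share dispersions. The members include Trpv6, whose lymphoma value rests on 7 reads in EuMycC2ko215. In both comparisons 21 of 40 members (52.5%) were within 0.5 of no change on the log2 scale, as were 60.4% of all genes. When the genotype effects were averaged, 1 member passed, against 0.699% of all genes. That was Krba1 (log2 fold change 1.21, LRT FDR 0.000831, QLF FDR 0.127), whose neuroblastoma change was 0.09. QLF called no member for the average and 0.0336% of all genes, with 7 of 40 members and 8.47% of all genes at an unadjusted QLF p under 0.05. The interaction of genotype and tumor type passed the LRT for 2 members (5%), Krba1 and Sspo, against 0.914% of all genes. QLF called none for the interaction and 0.0538% of all genes, with 5 of 40 members and 7.57% of all genes at an unadjusted QLF p under 0.05.

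**Figure D3:**
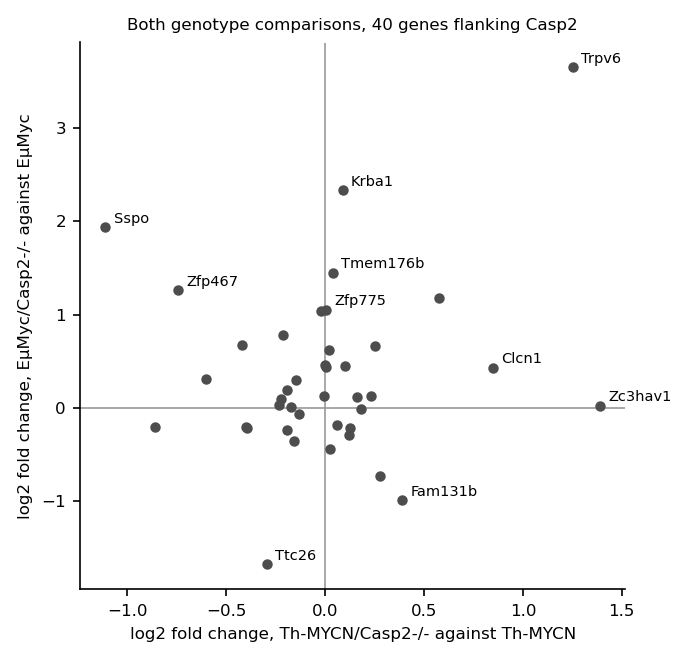
Log2 fold change of the 40 tested members in the neuroblastomas (horizontal axis) and the lymphomas (vertical axis), 1 point per gene. Krba1 and Tmem176b lie near 0 on the horizontal axis, Zc3hav1 lies near 0 on the vertical axis, Sspo is at upper left, and Trpv6, at upper right, rests on 7 reads in 1 lymphoma.

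By role, at most 1 member of any class passed in either genotype comparison. The 8 zinc finger genes (Zfp786, Zfp398, Zfp282, Zfp212, Zfp746, Zfp467, Repin1 and Zfp775) had a median log2 fold change of 0.01 in the neuroblastomas and 0.13 in the lymphomas, and none passed. The 5 genes of mitochondrial function, among them Ssbp1, which binds single-stranded mitochondrial DNA, and the ribosomal protein gene Mrps33, ranged from -0.22 to 0.18 and from -0.35 to 0.09. Braf, the RAF kinase, had -0.39 and -0.22, and Hipk2, a nuclear kinase that acts on p53, had -0.86 and -0.21, all with intervals that include 0. Of the genes acting on RNA or its modification beside Zc3hav1, its paralog Zc3hav1l had 0.06 and -0.18, the splicing factor gene Luc7l2 -0.13 and -0.06, and Parp12, an ADP-ribosyltransferase, 0.00 and 0.46. Ubn2, of a histone chaperone complex, had -0.23 and 0.03. Among secreted factors and their enzymes, Tbxas1 (thromboxane synthase) had -0.19 and -0.23, and Rarres2 (chemerin) 0.10 and 0.45. Most reads counted for Rarres2 could not be told from those of the overlapping gene Lrrc61. Slc37a3, a transporter, had 0.01 and 0.44, and Lrrc61 0.02 and 0.62. None of these passed. Of the 7 tested membrane proteins, 1 passed in the lymphomas (Tmem176b) and none in the neuroblastomas. Over all 40 members the median was 0.00 in the neuroblastomas, with 20 higher and 20 lower, and 0.13 in the lymphomas, with 26 higher and 14 lower. With 1 tumor left out the lymphoma median ranged from 0.025 (without EuMyc835) to 0.27 (without EuMyc614). Of all genes, 49.5% and 46.1% were higher, with medians of -0.00 and -0.03. Of the 597 tested genes of chromosome 6 outside the window, 32.5% and 61.5% were higher, with medians of -0.12 and 0.12.

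Values for the rest of chromosome 6 stand beside those of the members. Among genes over 1 CPM on average in the tumor type, the 504 on chromosome 6 outside the window had a median log2 fold change of 0.13 in the lymphomas, the highest of 20 chromosomes, beside 0.12 for 35 members. In the neuroblastomas the 546 outside genes had -0.13, rank 18 from the highest. In single tumors, as median log2 deviation from the wild-type mean of the tumor type, MYCN175 had 0.31 for the members and 0.25 for the rest of the chromosome, and the other Th-MYCN tumors -0.16 to -0.08 and -0.09 to -0.08. EuMycC2ko215 had 0.47 and 0.28, EuMycC2ko239 had 0.29 and 0.04, and EuMycC2ko245 had 0.06 and 0.11. The Th-MYCN/Casp2-/- tumors had -0.10, 0.11, -0.16 and 0.14 for the members and -0.14, -0.01, -0.24 and -0.10 for the rest. DNA copy number was not measured in these files, and its part in these values was not tested.

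**Figure D4:**
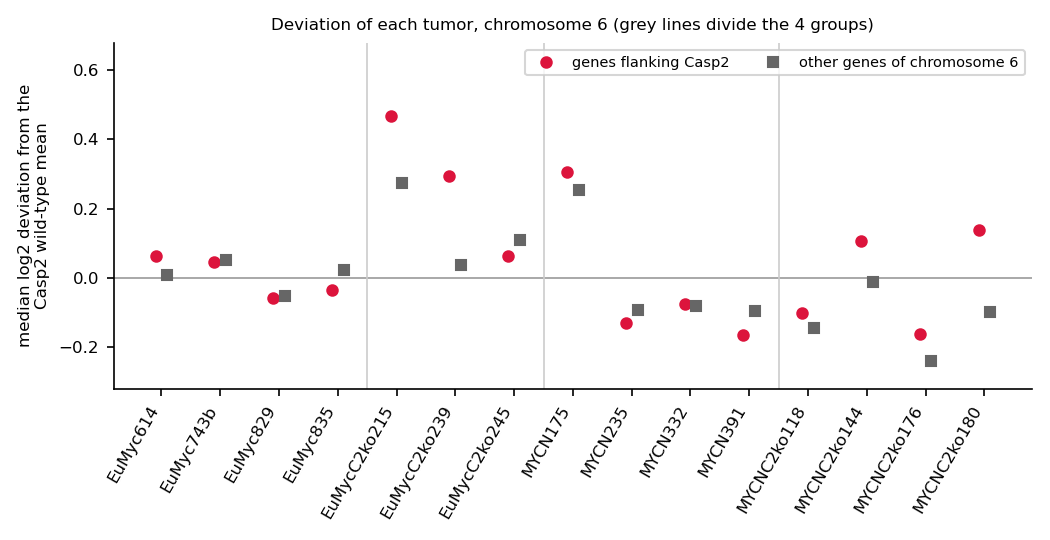
Median log2 deviation of each tumor from the Casp2 wild-type mean of its tumor type, for the members (red circles) and for the other genes of chromosome 6 (grey squares). MYCN175 and EuMycC2ko215 lie above the other tumors of their groups for both sets of genes.

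When genes of chromosome 6 were scaled in each tumor by that deviation, an alternative chosen after the values were seen, the median of the members became 0.13 in the neuroblastomas and 0.01 in the lymphomas. Krba1 stayed at a log2 fold change of 2.19 (LRT FDR 5.69e-08) in the lymphomas. The fitted changes of Tmem176b (1.28, LRT FDR 0.0643) and Zc3hav1 (1.46, LRT FDR 0.0502) stayed close to 1.45 and 1.39 while their FDRs crossed the threshold.

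Between the tumor types, differences among the members were far larger than between genotypes. Of 40 members, 26 (65%) had an LRT FDR under 0.05 between EμMyc and Th-MYCN tumors, against 62.2% of all genes. In the lymphomas 23 were lower (33.9% of all genes) and 3 higher (28.3%). Lower were the neuronal adhesion gene Cntnap2 (0 to 0.106 CPM against 15.8 to 102 CPM), Fam131b (0 to 0.437 against 44.5 to 95.5 CPM) and the proton pump subunit gene Atp6v0e2 (0.0855 to 0.849 against 184 to 264 CPM). Krba1 was lower as well, by a log2 fold change of -4.20 (standard error 0.34), and in EμMyc/Casp2-/- tumors it remained below every neuroblastoma. Higher in the lymphomas were Zc3hav1 (log2 fold change 4.96), Rab19 (5.79) and Ssbp1 (0.74). Cell type and strain both differed between these groups and cannot be told apart.

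Some members share exon bases with neighbours on the opposite strand, and reads of either strand were about equally frequent, the second strand column holding 48.8 to 49.3% of the stranded reads. Lrrc61 and Rarres2 share 30.6% and 33.6% of their exon bases. Their unstranded counts were 0.68 and 0.27 of the strand columns summed. Most reads counted for Rarres2, and part of those for Lrrc61, therefore cannot be assigned to 1 gene of the pair. Clcn1 and Fam131b share 8.20% and 10.8% in GENCODE M21, but that ratio was 1 for both, so the deposited counts show no shared reads.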

How the data were processed

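Per the labels and the study's methods, the authors extracted total RNA, selected its poly(A) fraction for single-end sequencing on an Illumina HiSeq, and mapped reads with STAR to mm10/GRCm38, with FastQC and edgeR also named in their notes. The authors deposited raw gene read counts in 3 versions, unstranded, first strand and second strand, and the last was analysed, as in the study. It holds 48.8 to 49.3% of the stranded reads on genes, so the genic reads of the other strand were not used. Reads without a gene on that strand, 56.9 to 60.3% of genic, ambiguous and no-feature reads together, were left out and include those.

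Analysis used R 4.3.3, edgeR 4.0.16 and DESeq2 1.42.0. The filter was over 1 CPM in 3 or more tumors, scaling was by TMM, and a single model gave each of the 4 groups a mean across the 15 tumors. The main test was edgeR's LRT with Benjamini-Hochberg adjustment over all 14880 genes, because the study's tables hold likelihood ratios, and QLF values stand beside it. A call needed an FDR under 0.05 and over 2-fold. Alternatives were QLF, DESeq2, its size factors, no filter, other strand columns, sex, each tumor type alone and each tumor left out. On counts simulated with the fitted dispersions as truth, the LRT recovered more of the changed genes than QLF and made more false calls. Those counts held no differences in cell mix, so they do not settle which test suits the tumors. Marker lists gave, beside those reported above, no call for B cell, neuroblast, fibroblast, Schwann or erythroid genes (1 of 7 erythroid genes tested) in either genotype comparison. Chi-square values divided by their degrees of freedom were 16.2 to 76.0 between tumors of a group, above sampling noise, and each library was counted as its own sample. Intervals are Wald intervals of the fit, and read floors cover counting error only.

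Positions came from RefSeq GRCm38.p6 by symbol (89.7% of tested genes placed) and exon overlaps from GENCODE M21. Members, gene lists and tests were chosen with earlier results of these data known. Every member could be named, with values by tumor for those at an LRT FDR under 0.05, the 5 smallest p in each comparison, members apart in the same direction in both tumor types (none), and those within 100 kb. Members apart in 1 tumor type were added after their values were seen.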

Additional observations from a re-analysis of the deposited data

Results flagged for a closer look

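Within groups of 4 tumors, 120 combinations of member and group were examined for a single tumor far from the other 3. About 1 in 20 sets of independent normal values would pass the cutoff used, and its rate over all genes was not counted. It was passed by 11 combinations, a count not read as an excess. Of these, 8 were high values of the Th-MYCN tumor MYCN175: 59.7 CPM for Zc3hav1l, 374 for Luc7l2, 18.6 for Agk, 280 for Zyx, 76.9 for Zfp746, 113 for Krba1, 76.0 for Repin1 and 33.5 for Zfp775. This tumor was also 0.25 above the Th-MYCN mean, on the log2 scale, over the rest of chromosome 6. Without it the median log2 fold change of the members in the neuroblastomas was 0.12, in place of 0.00, and Zyx went from -0.15 to 0.43. The others were a low value of Zfp398 in MYCNC2ko176 (6.94 CPM), a low value of Rarres2 in MYCNC2ko118 (20.8 CPM) and Trpv6 in EuMyc829 (0.0787 CPM, a single read).

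The effect of Casp2 genotype differed between the tumor types by the LRT for 2 of 40 members (5%), against 0.914% of all genes. They were Krba1, by 2.24, and Sspo, by 3.05, both on the log2 scale and higher in the lymphomas. By QLF neither passed (FDR 0.190 and 0.318), with 5 of 40 at an unadjusted QLF p under 0.05.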

How the results depend on the processing

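The rise of Krba1 in the lymphomas passed under all 9 other settings and with each of the 7 lymphomas left out. The Zc3hav1 call in the neuroblastomas, 1 member, became 0 under QLF, no filter, unstranded counts, the first strand column, each tumor type alone and chromosome 6 scaling, and 0 to 1 with a tumor left out. The lymphoma count of 2 became 1 (Krba1) under QLF, sex as a covariate, each tumor type alone and chromosome 6 scaling, and 1 to 5 with a tumor left out, 5 being without EuMycC2ko245. The averaged effect went from 1 member to 0 under QLF and the first strand column, and to 1 to 2 with a tumor left out (2 without EuMycC2ko239 or EuMycC2ko245). The interaction went from 2 to 0 under the same pair of settings and to 1 to 4 with a tumor left out (1 without EuMycC2ko215, 4 without EuMycC2ko245). Members without overlap went from 2 to 4 in the neuroblastomas with unstranded counts or chromosome 6 scaling, to 2 to 5 with a tumor left out there and from 3 to 4 to 9 in the lymphomas, since fewer tumors overlap less. Sspo in the lymphomas passed with unstranded counts (1.90) and without EuMyc835 or EuMycC2ko245. Over all genes QLF called 5, 21, 5 and 8 for the neuroblastomas, the lymphomas, their average and the interaction, against 121, 215, 104 and 136 by the LRT. With a tumor left out the member median was -0.083 to 0.12 in the neuroblastomas and 0.025 to 0.27 in the lymphomas, against a pooled SD of 0.17 between tumors, and 16 to 25 of 40 members shared a direction.

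Among the named members, signs turned only for 4 near Casp2, which passed in no setting: Gstk1 to 0.095 and Clcn1 to -0.13 in the lymphomas (first strand column), and Zyx to 0.072 in the neuroblastomas (chromosome 6 scaling). With a tumor left out they ranged, for Gstk1, from -0.0046 to 0.27 in the neuroblastomas and -0.55 to 0.51 in the lymphomas, for Zyx from -0.35 to 0.43, for Clcn1 from -0.36 to 1.10 and for Fam131b from -4.08 to 0.29. The causes were not tested. No paired analysis was possible because the labels number mice and give no shared replicate numbers. With 3 or 4 tumors a group and few reads, changes of low members such as Sspo, Clcn1 and Fam131b in the lymphomas were not resolved.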
